A study of Oryza sativa with 12 samples.

Results

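The SNP table made from roots of the hybrid rice Xieyou9308 and of both its parental lines holds 249857 sites. At 29935 of them each parent showed 1 base that was the same at heading and tillering, and the bases of the parents differed. Chromosome 4 carried 2349 of these 29935 sites, and the other 11 chromosomes carried 27586. The chromosome was read from the transcript identifier, which starts with Os04t, and no measured level was used to choose the sites. RNA from roots of the hybrid Xieyou9308, of its male parent R9308 and of its female parent Xieqingzao B was sequenced at heading and at tillering, from 2 roots for each combination (12 samples). The plants had no treatment other than growth in nutrient solution, and no transgene or mutant allele. The reads of the 2 roots were pooled before the bases were called, so that 6 pooled combinations of genotype and stage are left and no spread between roots can be computed. No interval or test given here therefore covers the spread between roots. The tests and the intervals of shares of reads cover counting error only, and reads copied by PCR do not count separate molecules. The intervals of shares of sites and of medians over sites take sites as independent units.

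Reads were aligned to Nipponbare, a japonica rice, so the reference base is the japonica base at each site. Xieqingzao B is an indica line, and R9308 is a restorer line that carries some japonica ancestry. Inheritance in inbred lines keeps neighbouring loci together, so the parent that has the reference base tends to stay the same over runs of loci. In an F1 hybrid the alleles of both parents lie in the same nucleus, and the share of reads with the R9308 base, called the R9308 share here, measures their relative abundance in the RNA. RAP locus numbers grow along a chromosome from the end of the short arm, and the short arm of rice chromosome 4 is known as largely heterochromatic. Locus numbers give order, not distance in bases, and positions within a transcript are counted from 1 at its start.

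The 2349 sites lay in 693 transcripts of 626 loci, out of 1994 chromosome 4 loci and 20052 chromosome 4 rows in the table. In 59 loci the sites lay in more than 1 transcript, so a base shared by transcripts can be counted once in each. With 1 transcript kept per locus there were 2182 sites. A single site was found in 233 of the 626 loci, 2 to 4 sites in 249, 5 to 9 in 91, and 10 or more in 53. These 53 loci held 878 sites, 37.4% of all. Another of the sites lay within 100 bases in the same transcript for 52.1% of them, so that one read can cover several. Transitions made up 64.8% of the changes (Wilson 95% interval 62.8 to 66.7%), and 65.6% of those on the other 11 chromosomes. At heading a site had a median of 23 supporting reads in R9308 and 26 supporting reads in Xieqingzao B. At tillering the medians were 37 reads in R9308 and 23 in Xieqingzao B, over the same sites. In at least 1 parent at 1 stage, 986 of the 2349 sites had fewer than 10 reads. The hybrid label held on this chromosome, since Xieyou9308 showed both parental bases at 1550 sites at heading, with a median of 27 reads, and at 1551 sites at tillering, with a median of 29 reads.

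The reference base belonged to R9308 at 2060 of the 2349 sites and to Xieqingzao B at 289, and there was no site at which both parents departed from it with different bases. The R9308 count was 87.7% of the sites (Wilson 95% interval 86.3 to 89.0%), against 76.3% (75.8 to 76.8%) on the other 11 chromosomes. In this share chromosome 4 stood at rank 3 of 12. The lowest was 58.3% on chromosome 11 and the highest 94.2% on chromosome 9. Sites of a locus were inherited together, so these intervals are too narrow for a comparison between chromosomes and no test was made. Both parents shared a base other than the reference base at 3289 further chromosome 4 sites. The parents thus differed at 41.7% of the sites at which at least 1 of them departed from Nipponbare, and at 41.1% on the other 11 chromosomes. There were 3.75 differing sites per locus that held any, and 3.55 on the other 11 chromosomes.

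The parents differed in a dense first stretch of the chromosome, where R9308 matched the reference, and in scattered groups of loci after it. In classes of 10000 locus numbers, 27 of the 33 classes up to Os04t043 had more differing than shared non-reference sites. Of the 32 that held a differing site, 18 held none at which Xieqingzao B had the reference base. The median share of differing sites over the 33 classes was 78.9%. From Os04t044 on, 4 of 26 classes had more differing than shared sites, the median was 10.9%, and 5 classes held no difference at all (Os04t050, Os04t056, Os04t057, Os04t065 and Os04t066). The boundary between the stretches was chosen after the values were seen, and no test was made of it.

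**Figure D1:**
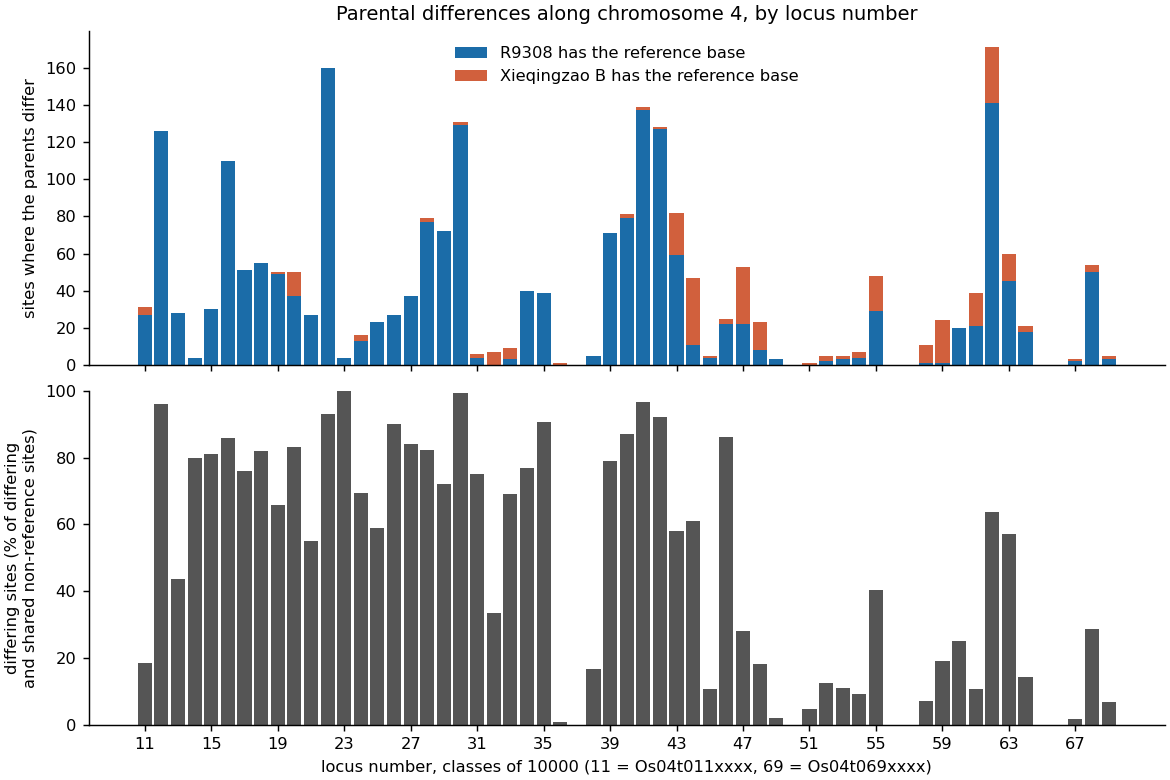
Sites at which R9308 and Xieqingzao B differed, in classes of 10000 locus numbers along chromosome 4 (upper panel, number of sites, coloured by the parent with the reference base), and differing sites as a percentage of differing and shared non-reference sites (lower panel). Up to class 43 the sites with the reference base in R9308 prevail and 27 of 33 classes exceed 50%, and the class with the most sites, 62, holds 171.

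Exceptions stood in both stretches. In the first, Os04t036 held 1 differing site beside 132 shared non-reference sites, and Os04t037 held none beside 63. The neighbouring class Os04t035 held 39 differing sites beside 4 shared ones, all 39 with the reference base in R9308. In the later stretch the class Os04t062 held 171 differing sites in 42 loci, more than any other class, 141 with the reference base in R9308 and 30 with it in Xieqingzao B, beside 97 shared sites. Os04t046 had 25 differing sites beside 4 shared ones. Class Os04t068 held 54 differing sites, 50 of them with the reference base in R9308, between classes with 3 and 5.

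To describe the runs, each locus was given the parent that had the reference base at most of its sites. The parent was then taken by majority over 11 neighbouring loci, and a run of the same parent was called a block. There were 19 blocks, 10 of R9308 and 9 of Xieqingzao B, over 604 loci, and 22 loci with equal numbers of sites for both parents had no parent of their own. The 3 longest blocks, all of R9308, held 463 of the 604 loci, 76.7%, whereas 11 blocks held fewer than 10 loci. The number of blocks depended on the smoothing and was 32 with the majority taken over 5 loci and 15 over 21 loci. It fell to 11 when each parent needed at least 10 reads at each stage.

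Block 1 ran from Os04t0112533 to Os04t0312100 with R9308 as the reference parent and held 1115 sites, 1090 with the reference base in R9308 and 25 with it in Xieqingzao B. Of its 201 loci, 193 had R9308 as their own reference parent. Among the sites departing from Nipponbare in this block, 70.8% differed between the parents, which came to 2.50 differing sites per locus of the table. Block 3, from Os04t0337201 to Os04t0439100, was also of R9308 and held 585 sites in 160 loci, 557 with the reference base in R9308 and 28 with it in Xieqingzao B, and 63.1% of its sites departing from Nipponbare differed. Between them, block 2 of Xieqingzao B ran from Os04t0319600 to Os04t0337000 with 15 sites in 7 loci, at every one of which Xieqingzao B had the reference base. This short block was not separated from its neighbours with the majority over 21 loci, when the longest block grew to 365 loci. It was also lost when loci with 2 bases in both inbred parents were left out, and the longest block then held 316 loci.

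In blocks 4 to 19 the reference parent changed often. Block 4, of Xieqingzao B, lay from Os04t0439400 to Os04t0444600 and held 39 sites, 6 with the reference base in R9308 and 33 with it in Xieqingzao B. It was followed by the R9308 block 5 (Os04t0444900 to Os04t0467901, 41 sites), the Xieqingzao B block 6 (Os04t0469700 to Os04t0474432, 20 sites) and the R9308 block 7 (Os04t0474500 to Os04t0476500). Blocks 8 to 11 spanned Os04t0477200 to Os04t0483000 and held 3, 10, 3 and 3 sites. Differences were sparse over the Xieqingzao B block 12, from Os04t0483500 to Os04t0516900, where 16 sites differed and 327 were shared, 4.66% differing. Block 13 (R9308, Os04t0524600 to Os04t0538000) held 10 sites, 5 with the reference base in each parent. Block 14 (Xieqingzao B, Os04t0542100 to Os04t0550400) also held 10 sites, 6 with the reference base in R9308 and 4 with it in Xieqingzao B, and 2 of its 3 loci with a parent of their own went with R9308, so its label rests on the neighbouring loci.

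The R9308 block 15 ran from Os04t0550600 to Os04t0557500 with 28 sites. Xieqingzao B had the reference base in its longest block, number 16, from Os04t0558400 to Os04t0594100, at 42 of 52 sites, and 1 of the 18 loci with a parent of their own went with R9308. In the same block 464 sites were shared and 10.1% differed. Block 17 (R9308, Os04t0608100 to Os04t0615100) had the reference base in R9308 at 21 of 22 sites, and block 18 (Xieqingzao B, Os04t0615900 to Os04t0618700) in Xieqingzao B at 13 of 22. The last block, number 19, was of R9308 and ran from Os04t0618950 to Os04t0691900 with 329 sites, 270 with the reference base in R9308 and 59 with it in Xieqingzao B, and 25.8% of its sites departing from Nipponbare differed.

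Taken by parent, the R9308 blocks held 2169 sites, and 49.7% of the sites departing from Nipponbare differed. The Xieqingzao B blocks held 180 sites, and 14.2% differed. Blocks 1 to 3 together had 2.21 differing sites per locus of the table and the reference base in R9308 at 96.0% of their sites (Wilson 95% interval 95 to 96.9%). Blocks 4 to 19 together had 0.52 per locus and 65.1% (61.4 to 68.7%).

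Some loci went against their block. In blocks 1 and 3 there were 15 such loci, with the reference base in Xieqingzao B at most of their sites, and most of them had only 1 or 2 sites. The one with the most was Os04t0202500, with the reference base in Xieqingzao B at all of its 7 sites. At heading its Xieqingzao B base rested on 1 read at 6 of these sites, against 10 to 20 reads for the R9308 base, so the reversal there has little depth behind it. In block 19 the locus Os04t0625900 had the reference base in R9308 at 2 sites and in Xieqingzao B at 8, and Os04t0630600 at 3 and 6 sites.

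The hybrid was used to ask whether the parental alleles were equally abundant in root RNA. A site was used at a stage when Xieyou9308 showed both parental bases with 44 or more reads. The minimum excludes pairs of read numbers that a spreadsheet can take for a calendar date, which total at most 43. Among the chromosome 4 sites with both bases, 214 pairs at heading and 234 at tillering had a first number up to 12 and a second from 13 that fits a month, and 0 pairs at either stage had the mirror image, so the order of such pairs is not known. With 44 or more reads, 533 sites in 219 loci were left at heading and 556 sites in 241 loci at tillering, with medians of 80 and 79 reads. Just inside the limit, at 44 to 47 reads, the median R9308 share was 53.3% over 43 sites at heading and 54.3% over 51 sites at tillering. Just outside it, at 40 to 43 reads, the medians were 51.2% over 47 sites and 51.9% over 56 sites.

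Reads with the R9308 base were slightly the more frequent over the chromosome. Most used sites carried the Nipponbare base in R9308, namely 463 of 533 at heading and 495 of 556 at tillering. Whether alignment to Nipponbare raised the share was not tested, so the excess is one of reads and not of alleles. The median R9308 share was 52.8% at heading, with quartiles of 45.2 and 60.6%, and 53.7% at tillering, with quartiles of 47.4 and 60.3%. The extremes were 11.5 and 85.4% at heading and 10.6 and 88.3% at tillering. On the other 11 chromosomes the median was 52.4% at heading and 52.1% at tillering. Each site was tested against a share of 50% by a two-sided exact binomial test with Benjamini-Hochberg adjustment over all such sites of the table. At heading 100 of the 533 sites were called towards R9308, 18.8%, where 16.7% were called over the whole series, and 42 towards Xieqingzao B, 7.88%, where 9.19% were called over the whole series. At tillering 90 of the 556 sites were called towards R9308, 16.2%, against a background of 16.8%, and 31 towards Xieqingzao B, 5.58%, against a background of 7.58%. The shares called on chromosome 4 thus lay near those of the whole series. With 1 site per locus, the best covered, 38 of 219 loci were called towards R9308 and 18 towards Xieqingzao B at heading, and 34 and 14 of 241 at tillering. These were 17.4 and 8.22% at heading, where 15.2 and 8.93% were called over the whole series. At tillering they were 14.1 and 5.81%, against 15.6 and 7.26%.

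**Figure D2:**
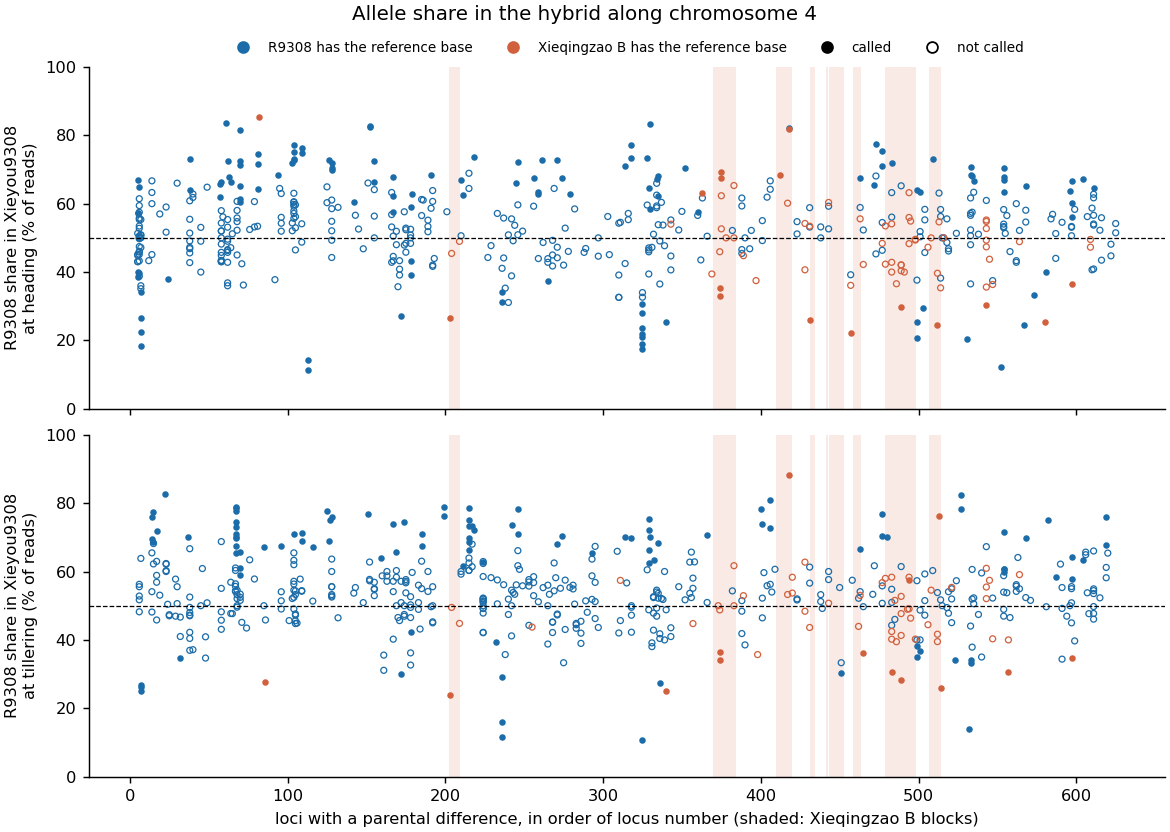
R9308 share of the hybrid reads at each used site (y axis, % of reads) over the 626 loci in order of locus number (x axis), at heading (upper panel, 533 sites) and at tillering (lower panel, 556 sites). Filled points were called at an adjusted p under 0.05, colours give the parent with the reference base, and shading marks the Xieqingzao B blocks. Called sites lie along the whole chromosome, and most lie above 50%.

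The share moved with the parent that had the reference base. Where R9308 had it, the median R9308 share was 53.4% at heading over 463 sites and 54.1% at tillering over 495 sites. Where Xieqingzao B had it, the median was 48.4% over 70 sites and 48.8% over 61 sites. The 95% order-statistic intervals of the medians did not overlap. At heading they were 52.3 to 55.2% where R9308 had the reference base and 42.9 to 50% where Xieqingzao B had it, and at tillering 53.2 to 55.0% and 43.8 to 52.1%. These intervals take sites as independent, which sites of the same locus are not. On the other 11 chromosomes the medians were 53.7% at heading and 53.6% at tillering where R9308 had the reference base, and 45.5 and 45.7% where Xieqingzao B had it. Of the 100 sites called towards R9308 at heading, 94 had the reference base in R9308, and of the 90 at tillering, 87. Of the sites called towards Xieqingzao B, 10 of 42 at heading and 11 of 31 at tillering had the reference base in Xieqingzao B. The part of alignment to the reference base in these shares was not tested. When each site was set against the median of its reference parent instead of 50%, 72 sites were called towards R9308 and 68 towards Xieqingzao B at heading, and 63 and 51 at tillering. These were 13.5 and 12.8% of the sites at heading, where 12.1 and 12.2% were called over the whole series. At tillering they were 11.3 and 9.17%, against 11.7 and 9.79%.

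The 4 blocks with the most used sites had medians between 49.0 and 54.4% in the hybrid. In block 1 the median R9308 share was 53.4% at heading over 222 sites and 54.4% at tillering over 203 sites. In block 3 it was 51.0% over 114 sites and 53.5% over 162 sites, and in block 19 it was 53.0% over 92 sites and 54.0% over 87 sites. The Xieqingzao B block 16 had medians of 49.4% over 21 sites and 49.0% over 23 sites. Block 17 of R9308 had medians of 48.8% over 12 sites and 44.4% over 11 sites. At heading 2 of its sites were called towards R9308 and 3 towards Xieqingzao B, and at tillering 0 and 3. The calls towards Xieqingzao B lay in 2 loci at each stage. They were 25 and 27.3% of its used sites, where 7.88 and 5.58% were called over chromosome 4. Blocks with few used sites lay farther out. Block 6 had medians of 75.1% over 4 sites at heading and 70.8% over 2 sites at tillering, block 13 had 36.1% over 3 sites at heading and 57.4% at its 1 site at tillering, and block 12 had 33.3% over 3 sites at tillering and no used site at heading. The quartiles of every block with 10 or more used sites at both stages overlapped those of the others. Over all R9308 blocks the median was 52.9% at heading and 54.0% at tillering, and over all Xieqingzao B blocks it was 52.4% and 50%. Within the R9308 blocks, 149 sites had the reference base in Xieqingzao B, and those used had a median R9308 share of 47.3% at heading over 31 sites and 49.6% at tillering over 26 sites. Within the Xieqingzao B blocks, the used sites with the reference base in R9308 had medians of 63.1% over 13 sites and 54.0% over 16 sites. The calls in block 1 were 46 sites towards R9308 and 13 towards Xieqingzao B at heading, and 39 and 7 at tillering. Block 3 had 25 and 11 at heading and 26 and 7 at tillering, and block 19 had 15 and 8 at heading and 14 and 6 at tillering.

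**Figure D3:**
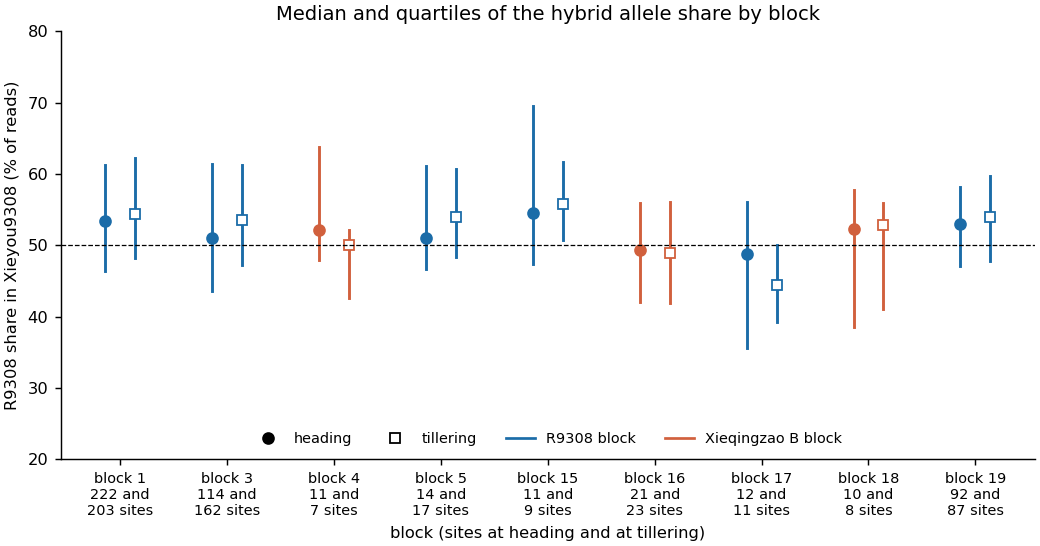
Median (symbols) and quartiles (lines) of the R9308 share of the hybrid reads (y axis, % of reads) in the 9 blocks with 10 or more used sites at heading and 7 or more at tillering (x axis), at heading (filled circles) and tillering (open squares), with R9308 blocks and Xieqingzao B blocks in different colours. All medians lie between 44.4 and 55.8%, and the quartile ranges overlap except for those of blocks 15 and 17 at tillering.

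Among the loci with the lowest p towards R9308, the glycoside hydrolase family 1 protein Os04t0474300-01, of an enzyme family that includes plant beta-glucosidases, had the highest share. At A1250G, given as the reference base, the position and the base of the other parent, 45 R9308 and 10 Xieqingzao B reads were found at heading (81.8%, Wilson 95% interval 69.7 to 89.8%), and 53 and 7 reads at tillering (88.3%, 77.8 to 94.2%). Here Xieqingzao B had the reference base, and both stages were called (exact binomial test, adjusted p = 3.7e-05 and 5.9e-08). A further site of this transcript, with the reference base in R9308, was called at heading with 37 and 8 reads. In 3 rows of this locus both inbred parents showed 2 bases, so reads of a similar locus may be counted there. The same limit holds for loci named below, with 7 such rows in Os04t0640850, 3 in Os04t0622600, 2 in Os04t0196600 and 1 in Os04t0309400.

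Os04t0278000-01 had 93 R9308 and 20 Xieqingzao B reads at C1501T at heading (82.3%, interval 74.2 to 88.2%, exact binomial test, adjusted p = 2.9e-10) and 59 and 44 at tillering. The transcript Os04t0149400-01 had 168 and 35 reads at G254C at tillering (82.8%, 77.0 to 87.3%, exact binomial test, adjusted p = 6.6e-19), and no base was listed for the hybrid at heading. R9308 itself had 1694 reads there at tillering, and Xieqingzao B 156. No function is given for these loci in the sources used here.

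The ribosomal protein of the small subunit that resembles S8, Os04t0349500-01, was called at both stages. It had 39 R9308 and 14 Xieqingzao B reads at C1008T at heading (73.6%, 60.4 to 83.6%, exact binomial test, adjusted p = 0.0053) and 132 and 51 reads at tillering (72.1%, 65.2 to 78.1%, adjusted p = 1.2e-07). The zinc finger protein Os04t0418500-01 of the RING/FYVE/PHD type, a class that holds many ubiquitin ligases, had 110 and 45 reads at C1595G at heading (71.0%) and 117 and 50 at tillering (70.1%), both called. A second used site of that locus had a share of 42.5% at heading and was not called. Os04t0224900-01 was also called at both stages, with 119 and 40 reads at C935T at heading (74.8%) and 78 and 35 at tillering (69%).

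The other loci chosen this way were called towards R9308 at 1 stage. Except at Os04t0276600-01, the named site was not tested at the other stage, where no base was listed or fewer than 44 reads were found. At heading Os04t0182200-01 had 203 R9308 and 97 Xieqingzao B reads (67.7%), Os04t0421900-01 had 121 and 44 (73.3%), and Os04t0196600-01 had 94 and 32 (74.6%). At tillering Os04t0309400-01 had 109 and 34 reads (76.2%) and Os04t0276600-01 had 90 and 27 (76.9%). For Os04t0276600-01 the 35 and 18 reads at heading (66.0%) lay on the same side with an adjusted p of 0.088 (exact binomial test). Of the loci annotated by the study, the RING-type zinc finger protein Os04t0403200-01 had 48 and 18 reads at T226G at heading (72.7%), and the UPF0307 domain protein Os04t0250700-01 had 33 and 11 at G293T at tillering (75%). Each had a pair below 44 reads at the other stage that can be read as a date, so it is not set against these values.

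Towards Xieqingzao B, the site C977T of Os04t0319600-01 was called at both stages. The protein has the domain of GCD14, in yeast a subunit of an enzyme that methylates tRNA. It had 27 R9308 and 75 Xieqingzao B reads at heading (26.5%, 18.9 to 35.8%, exact binomial test, adjusted p = 3.9e-05) and 38 and 121 at tillering (23.9%, 17.9 to 31.1%, adjusted p = 3.7e-09). This locus opens block 2, and Xieqingzao B had the reference base. Os04t0394300-01 was called at both stages as well, with 29 and 56 reads at G1615A at heading (34.1%) and 13 and 69 at tillering (15.9%), although R9308 had the reference base.

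Os04t0420900, with 38 sites the locus with the second highest number, was low in R9308 reads at many sites. At heading 7 of its 9 used sites were called towards Xieqingzao B. The shares of all 9 lay between 17.5 and 34.0%, with a median of 23.7%. At A2271G its transcript Os04t0420900-02 had 17 and 64 reads at heading (21%, 13.5 to 31.1%) and 5 and 42 at tillering (10.6%, 4.63 to 22.6%), the lowest share of that stage. The parents differed the same way there, with 23 reads in R9308 and 122 in Xieqingzao B at heading, and 51 and 96 at tillering. R9308 had the reference base at this site, so the direction of the share was opposite to that of the median.

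Os04t0127300-01 had 30 R9308 and 134 Xieqingzao B reads at C1184A at heading (18.3%, 13.1 to 24.9%, exact binomial test, adjusted p = 3.0e-14). Of the 11 used sites of the locus, with shares between 18.3 and 55.4%, 4 were called. At positions 1120, 1135 and 1159 only the Xieqingzao B base was listed at heading, with 271, 282 and 301 reads. At tillering both bases were listed at these positions, with 14 and 42, 15 and 41, and 15 and 42 reads, and all 3 were called. Other sites of the locus went the other way at tillering. Only the R9308 base was listed there at positions 901, 903 and 964, with 11, 12 and 14 reads. Position 1709 had 30 R9308 and 17 Xieqingzao B reads and was not called. Os04t0227100-01 had 12 and 72 reads at C793T at heading (14.3%), and another of its sites, at position 680, had 7 and 54 reads, 11.5%, the lowest share of that stage.

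The remaining named sites towards Xieqingzao B lay in blocks 18 and 19. At heading Os04t0622600-00 had 18 R9308 and 70 Xieqingzao B reads (20.5%) and Os04t0627900-01 had 6 and 43 (12.2%). At tillering Os04t0623066-01 had 8 and 49 (14.0%) and Os04t0618700-01 had 16 and 46 (25.8%). In the parents Os04t0622600-00 had 12 reads in R9308 and 219 in Xieqingzao B at heading. For Os04t0627900-01 the parents had 2 and 4 reads, so its parental bases rest on little depth.

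**Figure D4:**
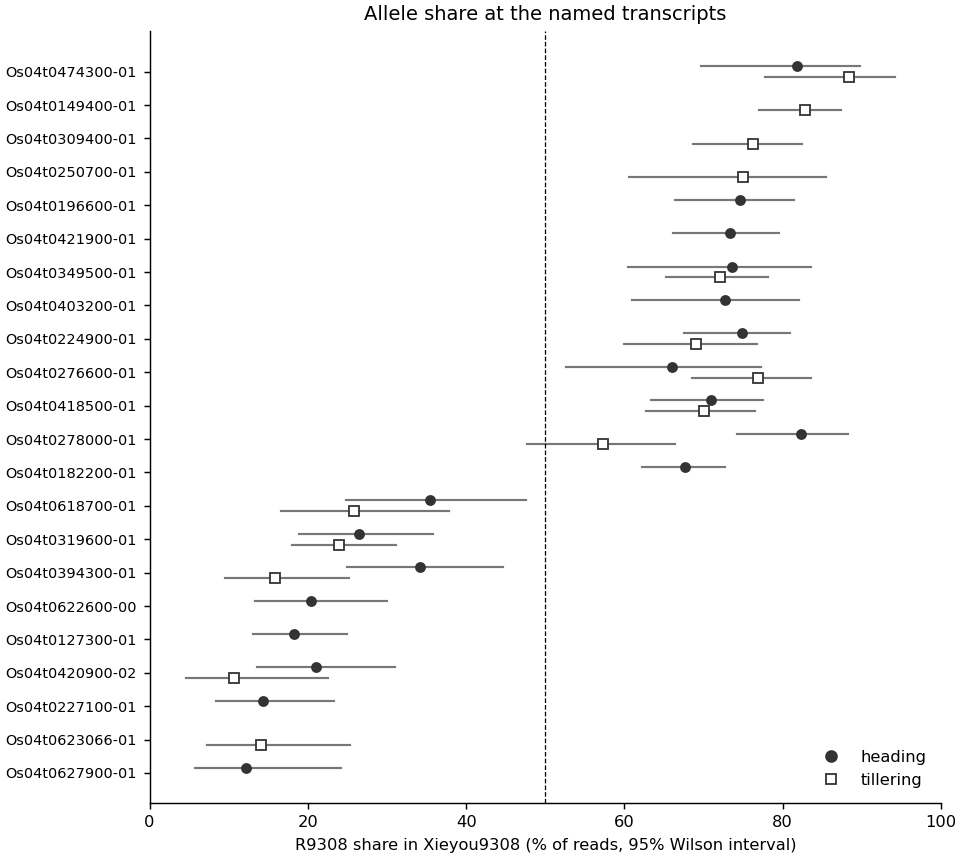
R9308 share of the hybrid reads (x axis, % of reads) with 95% Wilson intervals at the best covered or lowest p site of 22 named transcripts, at heading (filled circles) and tillering (open squares), shown where 44 or more reads were found. The intervals of both stages overlap for Os04t0349500-01 and Os04t0319600-01 and do not overlap for Os04t0278000-01.

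Loci with several used sites showed how far sites of the same transcript agree. In Os04t0188500-01, all 6 sites were called towards R9308 at heading, where position 104 had 251 R9308 and 95 Xieqingzao B reads (72.5%), position 192 had 256 and 161 (61.4%), and position 504 had 84 and 19 (81.6%). In the tillering roots 3 of the 6 were called, and the shares of all 6 lay between 51.6 and 65.6%. In Os04t0183500, 10 of 16 used sites were called towards R9308 at tillering, and no site reached 44 reads at heading. The shares of all 16 lay between 54.2 and 78.8%. Os04t0348400 had 6 of 10 called towards R9308 at tillering, and Os04t0628100 had 4 of 8 at each stage.

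The spread within a locus was wide. Over the loci with 5 or more used sites, the highest minus the lowest share had a median of 25.6 percentage points at heading over 24 loci and 24.5 at tillering over 23 loci. At heading 5 loci had sites called towards each parent (Os04t0127100, Os04t0127200, Os04t0301500, Os04t0608100 and Os04t0640900), and at tillering 1 locus did, Os04t0640900. Os04t0127200 held the most sites, 77 over its transcripts, and a base shared by these can be counted more than once. Its 19 used sites at heading had a median of 50.2% and 5 at tillering a median of 52.8%. Os04t0127100 had 3 sites called towards R9308 and 2 towards Xieqingzao B among 10 at heading, between 38.7 and 67.0%. Of the other loci with the most sites, Os04t0286900 (32 sites), Os04t0303100 (26) and Os04t0291100 (24) had no called site at either stage.

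The parents' own reads at the same sites ran in the direction of the hybrid share. The reads of each parent were divided by its total over all 29935 sites, and R9308 was expressed as a share of both parents. Of the 100 sites called towards R9308 in the hybrid at heading, 90 had more R9308 than Xieqingzao B parental reads on this scale, as had 72 of the 90 at tillering. Of the sites called towards Xieqingzao B, 38 of 42 at heading and 30 of 31 at tillering had more Xieqingzao B parental reads. On the other 11 chromosomes these shares were 89.5 and 79.1% at heading and 79.5 and 95.1% at tillering. Among chromosome 4 sites that were not called, 211 of 391 at heading and 163 of 435 at tillering had more R9308 parental reads. Across the sites the hybrid and the parental share had a Spearman correlation of 0.53 at heading and 0.57 at tillering, which is a description, since the sites share libraries, loci and alignment. The hybrid share lay nearer to 50% than the parental share at 59.8% of the sites at heading and 54.7% at tillering. On the other 11 chromosomes this held for 57.5 and 54.2%. The median parental share was 52.5% at heading and 47.6% at tillering, so distances from 50% depend on the scaling.

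At both stages 337 sites in 162 loci could be used. Their R9308 shares at heading and tillering had a Pearson correlation of 0.63 and a Spearman correlation of 0.58, given as a description because neighbouring sites are not independent. The median absolute difference was 6.09 percentage points, and at 246 of the 337 sites the same parental base was the more frequent one at heading and at tillering. Both stages were called towards R9308 at 28 sites in 21 loci and towards Xieqingzao B at 11 sites in 9 loci, and 0 sites were called towards different parents. By Fisher's exact test with Benjamini-Hochberg adjustment, 4 of the 337 sites differed between heading and tillering, 1.19%, where 0.618% differed over the whole series. An unadjusted p under 0.05 was found at 39 of the 337 sites, and at 515 of the 5338 sites of the whole series. All 4 sites that differed after adjustment had the reference base in R9308, as had 292 of the 337. They lay in blocks 1 and 3, which held 122 and 77 of the 337.

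**Figure D5:**
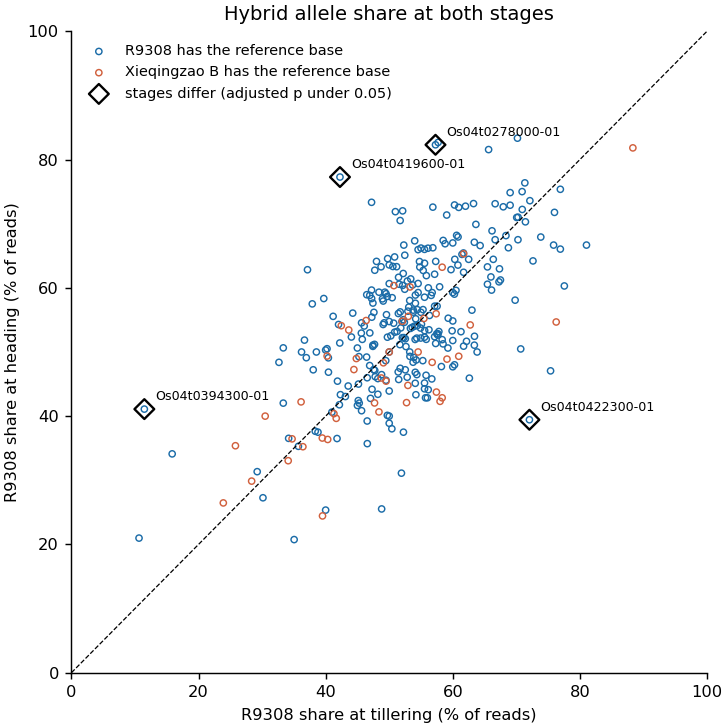
R9308 share of the hybrid reads at heading (y axis, % of reads) against tillering (x axis, % of reads) at the 337 sites used at both stages, coloured by the parent with the reference base. Diamonds mark the 4 sites that differed between the stages, 3 above the diagonal and 1 below it.

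Where a locus held a site that differed between stages, its other sites often differed less. Os04t0419600-01 had 34 R9308 and 10 Xieqingzao B reads at G895C at heading and 60 and 82 at tillering. At C937G of the same transcript, 44 and 16 reads were found at heading and 102 and 114 at tillering (adjusted p = 0.056, Fisher's exact test). At its position 1049 the reads were 16 and 17 at heading and 107 and 107 at tillering. Os04t0278000-01 showed the same direction at both of its sites used at both stages, with 62 and 13 reads at position 1215 at heading and 60 and 44 at tillering (Fisher's exact test, adjusted p = 0.069). In Os04t0422300-01 the sites varied. At position 640 the reads were 32 and 36 at heading and 49 and 16 at tillering, a difference of -28.3 points in the direction of A199G (Fisher's exact test, adjusted p = 0.093), and at position 600 the difference was -16.7 points (adjusted p = 0.35). At position 490 the reads were 46 and 53 at heading and 61 and 64 at tillering, a difference of -2.34 points, and at position 1320 the difference was -1.93 points. In Os04t0394300-01 the reads at position 1415 were 21 and 46 at heading and 19 and 46 at tillering, a difference of 2.11 points. At its position 1615 the difference was 18.3 points (Fisher's exact test, adjusted p = 0.23). At its position 510 only the R9308 base was listed at heading, with 30 reads. Of the best covered sites of the other loci, the lowest p values between stages belonged to Os04t0640850-00, with 192 and 110 reads at T98C at heading and 153 and 153 at tillering (Fisher's exact test, adjusted p = 0.080), and to Os04t0634700-01, with 199 and 297 reads at T1098G at heading and 252 and 255 at tillering (adjusted p = 0.14).

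The hybrid showed only 1 parental base at some sites. At heading this was the R9308 base at 94 sites and the Xieqingzao B base at 118, and at tillering 97 and 94. The 29935 sites of the whole series held 1355 and 1545 at heading and 1229 and 1480 at tillering. With 44 or more reads there were 5 and 9 at heading and 1 and 1 at tillering, against 30 and 88, and 40 and 61. Those at heading included positions 65, 71, 82 and 120 of Os04t0135100-00 (R9308 base) and 1120, 1135 and 1159 of Os04t0127300-01 (Xieqingzao B base). Such neighbouring sites are not independent. For the hybrid, no base was listed at 587 sites at heading and 607 at tillering. A single base says only that the caller listed no second one. Over the whole series, no site with 44 or more reads and 2 bases had a lower share than 9.52% at heading and 9.09% at tillering, so a rarer allele can go unlisted. At both stages 42 sites in 33 loci had a single base, and at 35 of them it was of the same parent, R9308 at 17 and Xieqingzao B at 18.

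The deepest of these was A71C of Os04t0135100-00, with 145 R9308 reads at heading and 62 at tillering. Its parents had 124 reads in R9308 and 5 in Xieqingzao B at heading, and 133 and 6 at tillering. Os04t0626500-01 had 26 and 43 R9308 reads at the 2 stages, with 33 parental reads in R9308 and 1 in Xieqingzao B at heading. Only the Xieqingzao B base was listed for Os04t0525100-01, with 25 reads at heading and 34 at tillering, for Os04t0226800-00, with 24 and 30, and for Os04t0629300-02, with 26 and 20. In these last 3 transcripts R9308 itself had between 1 and 7 reads at the site. At each of these 5 sites the parent whose base was not listed in the hybrid had at most 7 reads of its own.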

How the data were processed

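The authors sequenced poly(A) RNA of roots as paired reads, removed reads and trimmed ends of low quality, mapped the rest with RSEM to the Nipponbare reference, and combined the reads of both roots of a genotype at a stage. The submitters' processing notes name CASAVA 1.8 and SAMtools 0.1.16, and the SNP caller is not given in the sources used here. The deposited table gives for each site and pooled combination the called bases, their numbers of supporting reads (a pair where 2 bases were called, in the same order), and a quality score. Which caller the deposited score comes from is not known, and it was used only in alternatives. RPKM values were not used here, and depth and quality minimums like those of the study were applied only as alternatives.

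Members and lists were chosen with earlier results of these data known. Sites were taken where each parent had a single base, the same at both stages, and the parents differed. Loci with equal numbers of sites for both parents were left out of the smoothing over 11 loci (5 on each side), and sites between blocks were counted with the preceding block. Parental reads were scaled to the total of each parent. Hybrid reads (44 or more) were tested against 0.5 by exact binomial tests, and between stages by Fisher's exact test, two-sided, with Benjamini-Hochberg adjustment over all such sites of the table and a threshold of 0.05. The tests and the block finder were run on simulated data with known answers first. Named loci were those annotated by the study, the 5 whose best covered site had the lowest p in each direction and stage and between stages, the 5 with the most sites, the 5 with the most reads at a single base at both stages, and the ends of blocks. Other loci named for several called sites, for calls in both directions, for going against their block or as extreme values were chosen after their values were seen. Gene names come from the study's table. The gene table at hand holds no RAP identifiers, and no sequence was at hand. The work used matplotlib 3.10.9, scipy 1.17.1, pandas 2.3.3, numpy 2.4.6 and Python 3.11.15.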

Additional observations from a re-analysis of the deposited data

Results flagged for a closer look

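At 4 chromosome 4 sites the R9308 share of the hybrid reads differed between heading and tillering by Fisher's exact test with Benjamini-Hochberg adjustment over the 5338 sites of the table used at both stages. At position 895 of Os04t0419600-01 the share was 77.3% at heading (34 R9308 and 10 Xieqingzao B reads) and 42.3% at tillering (60 and 82 reads), a difference of 35.0 percentage points (adjusted p = 0.023, exact test). At position 1501 of Os04t0278000-01 it was 82.3% at heading (93 and 20 reads) and 57.3% at tillering (59 and 44 reads), a difference of 25 points (adjusted p = 0.025, exact test). At position 199 of Os04t0422300-01 it was 39.4% at heading (28 and 43 reads) and 72.1% at tillering (49 and 19 reads), a difference of -32.6 points (adjusted p = 0.031, exact test). At position 566 of Os04t0394300-01 it was 41.1% at heading (30 and 43 reads) and 11.5% at tillering (7 and 54 reads), a difference of 29.6 points (adjusted p = 0.033, exact test). Each stage is 1 pooled combination, so the spread between roots was not tested, and the stage and the sequencing of its roots cannot be told apart.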

How the results depend on the processing

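No paired analysis was possible because the 2 roots of each genotype and stage were pooled before the bases were called. The number of chromosome 4 sites was 2349 and was 1363 when every parental column had to hold 10 or more reads, and the number of blocks was then 11 in place of 19. With smoothing over 5 loci there were 32 blocks. The share of sites with the reference base in R9308 lay between 87.4 and 88.5% under every alternative tried.

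With 20 or more hybrid reads, pairs whose order is not known were let in. The median R9308 share where Xieqingzao B had the reference base then turned to 51.5% at heading and 51.9% at tillering. Where R9308 had it, the median was 50% at both stages. Sites called towards Xieqingzao B were then 67 at heading and 61 at tillering, and 40 sites differed between stages in place of 4. With 100 or more reads 52 and 14 sites were called towards R9308 and Xieqingzao B at heading, 38 and 12 at tillering, and 1 differed between stages. With 1 site per locus these were 38 and 18, 34 and 14, and 1, since fewer sites were tested. Against the median of the reference parent, 68 sites were called towards Xieqingzao B at heading and 51 at tillering. Of 67 values under an alternative, 46 stayed within 1.5 times the count or within the interval of the value. Leaving out loci with 2 bases in both inbred parents, an alternative chosen after seeing the data, was among these for all 8 values. Sites with few reads limit the calls, since 1550 sites at heading and 1551 at tillering had both bases but 533 and 556 had 44 or more reads.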
